A study of Homo sapiens with 6 samples.

Results

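The 9 genes described here are transcription factors and secretory products that mark the lung epithelial lineage. They comprise FOXA1, FOXA2, NKX2-1, GATA6, SOX2, SOX9 and KLF5, the surfactant gene SFTPB and the protease gene NAPSA. They were chosen by gene symbol among the 57150 genes of a table of FPKM, fragments normalised to transcript length and to the size of the library. Each symbol occurred once in that table. The cells were H358, an established line of human non-small-cell lung carcinoma with epithelial character. RBM47, an RNA-binding protein, had been lowered in 3 libraries with lentiviral short hairpin RNAs, and 3 libraries came from cells with a control knockdown. The series design calls each set of 3 biological triplicates; what the control hairpin targets is not stated. The labels do not say how many hairpins were used, and all libraries come from this single cell line.

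NKX2-1, also called TTF-1, is the homeodomain factor that specifies the lung endoderm and switches on surfactant genes. FOXA1 and FOXA2 are related forkhead factors that can bind closed chromatin, and in mouse lung they share targets and act together with NKX2-1 and the zinc-finger factor GATA6. SOX2 marks the proximal airway and SOX9 the distal tip of the growing lung, KLF5 takes part in the maturation of the alveolar epithelium, and the proprotein of surfactant protein B (SFTPB) is cut by proteases that include napsin A (NAPSA).

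The target of the hairpins, RBM47, had 12.01, 13.4 and 13.5 FPKM after its knockdown against 85.2, 92.4 and 87.9 FPKM in control cells, which is 14.6% of the control mean. Summed FPKM ran from 651951 to 673552 per library, and the number of fragments behind each value is unknown. Judged from the smallest nonzero values, the control libraries were deeper, at 1.09 to 1.16 relative to RBM47 knockdown replicate 1, than the other knockdown libraries, at 1.02 and 1.04. The 14 epithelial identity genes summed to 4394 to 4569 FPKM in the knockdown and to 5110 to 5434 FPKM in the controls, whereas 19 markers of blood, endothelial, fibroblast and mural cells summed to 57.6 to 73.1 and to 71.4 to 76.3 FPKM. None of those 19 was at 0 in all libraries, and 13 had a mean under 1 FPKM. RNA of all cells was pooled in each library, so a smaller share of expressing cells and less RNA per cell cannot be told apart.

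Of the 9 genes, FOXA1 alone changed by the test across all genes, and it fell. The other 7 factors and products that could be tested did not pass, and SFTPB was listed at 0 in every library. The test was limma on log2(FPKM + 1) over the 14419 genes that averaged 1 FPKM or more, with a threshold of 0.05 on the Benjamini-Hochberg adjusted p. Thus 1 of 8 tested genes was lower and none was higher, and FOXA1 was also the single gene of the 8 with an unadjusted p under 0.05. Across all tested genes 6.34% were lower, 5.1% higher and 11.4% changed in either direction, so the share among these 8 is near the background. The knockdown and control values lay apart in 4 of the 8 genes, against 34% of all tested genes. The median log2 fold change was 0.00 over the 8 and 0.01 over all tested genes.

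The levels formed the same order in both groups. KLF5 was highest, followed by FOXA1, NKX2-1, SOX2, FOXA2, GATA6, SOX9, NAPSA and SFTPB. In each of the 8 neighbouring pairs of this order the ranges of the 3 libraries did not overlap, in the knockdown and in the control alike. The narrowest steps in the knockdown were those from FOXA1 to NKX2-1, with a ratio of mean FPKM of 1.18, and from FOXA2 to GATA6, also 1.18. In the controls FOXA1 stood 1.74 times above NKX2-1. By mean FPKM over all libraries, 87.8% of the tested genes lay at or below KLF5, 67.7% at or below FOXA1, 57.0% at or below NKX2-1 and 3.61% at or below NAPSA.

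**Figure D1:**
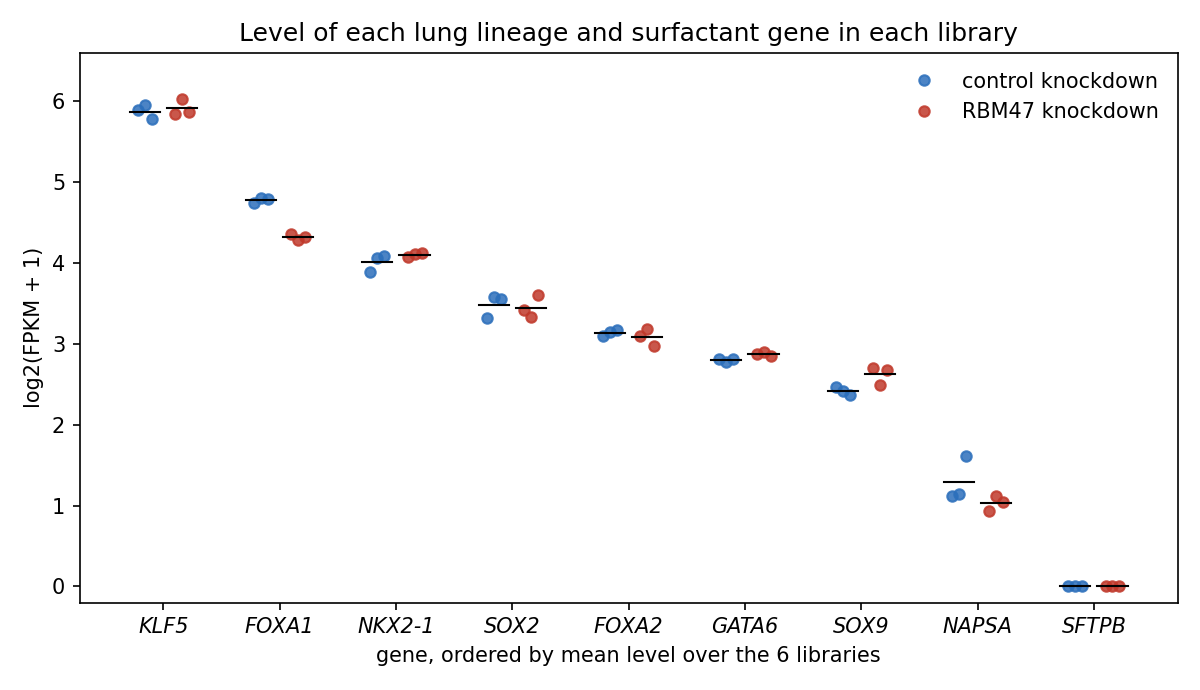
Level of the 9 genes in each library as log2(FPKM + 1), ordered by mean level. Points are libraries (blue, control knockdown; red, RBM47 knockdown) and bars are group means; FOXA1 is the gene whose groups lie clearly apart, and SFTPB is at 0 throughout.

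FOXA1 (ENSG00000129514) had 19.6, 18.5 and 19.0 FPKM in RBM47 knockdown replicates 1 to 3 and 25.7, 27.0 and 26.7 FPKM in control replicates 1 to 3. Every knockdown value lay below every control value. Mean FPKM was 19.0 ± 0.555 against 26.5 ± 0.680 (SD, n = 3 each), which leaves 71.8% of the control level. On the log2(FPKM + 1) scale FOXA1 fell by 0.46 (SE 0.05, 95% interval -0.58 to -0.34, limma, adjusted p = 0.00298). By permutation of the library labels, exact and two-sided, p was 0.1, below which 3 against 3 libraries cannot go. The control libraries were also the deeper ones, and the epithelial identity genes summed to less after knockdown, as given above; the part of either in the FOXA1 value was not tested. The change ranged from -0.48 to -0.44 when each library was left out in turn, with limma adjusted p from 0.0084 to 0.0179. The table places FOXA1 on chromosome 14 (hg19, 38059189 to 38672128), in a stretch assigned to 8 genes. Of the other 7, 4 were at 0 in all libraries, and the highest value of TTC6, the neighbouring protein-coding gene, was 1.60 FPKM. SNORA42, a small nucleolar RNA gene of the same stretch, had 57.1 FPKM in knockdown replicate 3 and 0 in the other 5 libraries. How reads were divided within such a stretch is not stated.

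FOXA2 (ENSG00000125798), the related forkhead gene, was alone in its locus on chromosome 20 from 22561643 to 22566093. It had 7.58, 8.08 and 6.88 FPKM in RBM47 knockdown replicates 1 to 3 and 7.57, 7.90 and 8.01 FPKM in control replicates 1 to 3. The groups overlapped, and the difference of means was smaller than the spread of the knockdown libraries (7.51 ± 0.602 against 7.83 ± 0.230 FPKM, SD, n = 3 each). Its log2 fold change was -0.05 (95% interval -0.23 to 0.13, limma, adjusted p = 0.691). The 2 forkhead genes were compared directly, as the difference of their log2(FPKM + 1) in each library. FOXA1 exceeded FOXA2 by 1.10 to 1.34 in the knockdown libraries and by 1.62 to 1.65 in the controls, without overlap. The mean gap narrowed by 0.40 (exact two-sided permutation test, p = 0.1, the smallest value possible). This was 1 of 3 such comparisons planned. The others were SOX2 with SOX9, which also could not fall below 0.1, and SFTPB with NAPSA. The last was not run, and SFTPB was listed at 0 in every library.

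**Figure D2:**
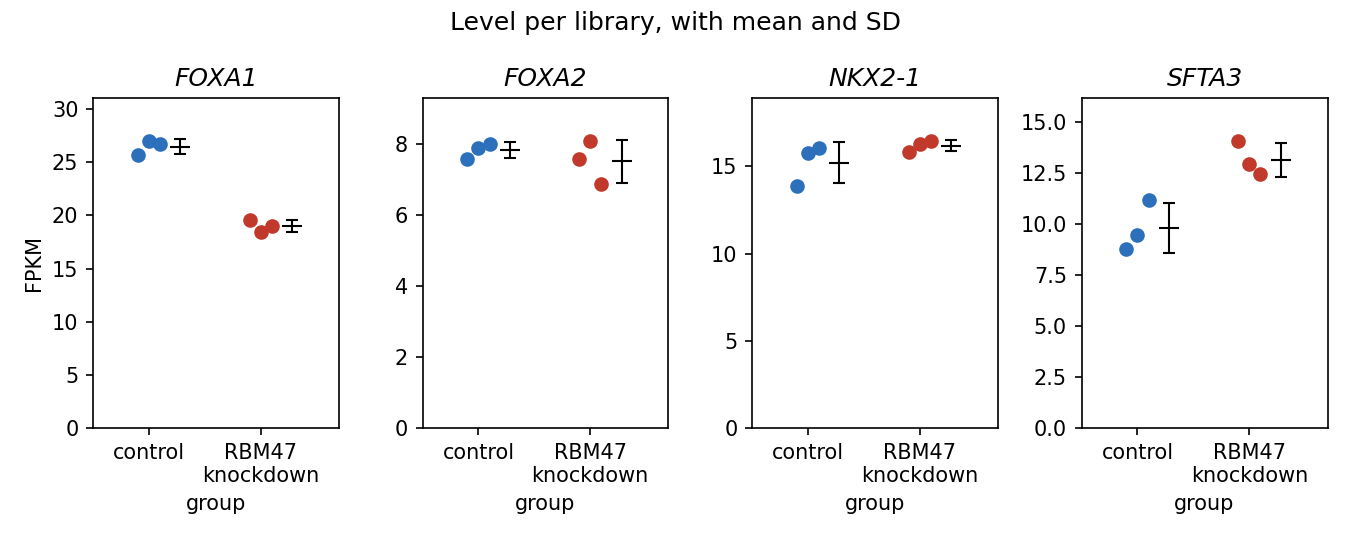
FPKM of FOXA1, FOXA2, NKX2-1 and SFTA3 per library (points), with group mean and SD beside them, on axes that start at 0 and differ between panels. FOXA1 is lower in each knockdown library, FOXA2 and NKX2-1 overlap between groups, and SFTA3 is higher in each knockdown library.

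NKX2-1 (ENSG00000136352) had 15.8, 16.3 and 16.4 FPKM in RBM47 knockdown replicates 1 to 3 and 13.9, 15.7 and 16.1 FPKM in control replicates 1 to 3. The groups overlapped, with control replicate 1 the lowest of the 6 libraries. The log2 fold change was 0.09 (95% interval -0.07 to 0.25, limma, adjusted p = 0.455). NKX2-1 shares its place on chromosome 14 (36942412 to 36992221) with 3 other genes in the table. SFTA3, named as a surfactant-associated gene, is one of them, and it passed the test. SFTA3 was listed at 14.1, 12.98 and 12.4 FPKM after RBM47 knockdown and at 8.81, 9.50 and 11.2 FPKM in the controls (log2 fold change 0.39, SE 0.09, limma, adjusted p = 0.0363). All 3 knockdown values lay above all 3 control values. The call of SFTA3 was lost in each fit without 1 library except that without control replicate 3 (adjusted p = 0.0308), with adjusted p from 0.0561 to 0.104 in the other 5. It was also lost with no filter on low genes (0.0947), without the trend in limma (0.0558) and with the replicate number as a block (0.0866). The gap between SFTA3 and NKX2-1 differed between the groups by 0.31 on the log2 scale (exact two-sided permutation test, p = 0.1, a comparison chosen after the values were seen). The antisense transcript NKX2-1-AS1 had at most 0.47 FPKM in any library.

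GATA6 (ENSG00000141448, chromosome 18, 19749404 to 19785192) had 6.37, 6.47 and 6.22 FPKM in RBM47 knockdown replicates 1 to 3 and 6.04, 5.86 and 6.05 FPKM in control replicates 1 to 3. The knockdown values lay just above the controls without overlap, with means of 6.35 ± 0.127 against 5.98 ± 0.106 FPKM (SD, n = 3 each). Its log2 fold change of 0.07 did not pass (95% interval -0.09 to 0.23, limma, adjusted p = 0.525). The limma SE of 0.07 rests on the spread of genes at a similar level as well as on that of GATA6 itself. The 3 other genes that the table puts in the same locus were at 0 in all libraries.

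SOX9 (ENSG00000125398, chromosome 17, 70017992 to 70216859) had 5.50, 4.62 and 5.41 FPKM in RBM47 knockdown replicates 1 to 3 and 4.53, 4.34 and 4.16 FPKM in control replicates 1 to 3. The groups did not overlap, although knockdown replicate 2 lay close to control replicate 1. The log2 fold change was 0.21 (95% interval -0.00 to 0.42) with an unadjusted p of 0.0536 and an adjusted p of 0.183 (limma). SOX2 (ENSG00000181449) had 9.67, 9.05 and 11.2 FPKM in RBM47 knockdown replicates 1 to 3 and 9.03, 10.9 and 10.8 FPKM in control replicates 1 to 3. Here the groups overlapped over most of their range, and the log2 fold change was -0.04 (95% interval -0.27 to 0.20, limma, adjusted p = 0.853). SOX2 shares a locus on chromosome 3 from 180701497 to 181554668 with 11 other genes. One of these is SOX2-OT, the long noncoding RNA whose gene spans SOX2, at 0.41 FPKM or less in every library. The SOX2 and SOX9 effects differed by 0.24 (exact two-sided permutation test, p = 0.2).

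KLF5 (ENSG00000102554, chromosome 13, 73629114 to 73651676) was alone in its locus. It had 56.3, 64.3 and 57.6 FPKM in RBM47 knockdown replicates 1 to 3 and 58.4, 61.1 and 54.0 FPKM in control replicates 1 to 3. The ranges overlapped, and the means of 59.4 ± 4.32 and 57.8 ± 3.57 FPKM (SD, n = 3 each) differed by less than either SD. The log2 fold change was 0.04 (95% interval -0.12 to 0.20, limma, adjusted p = 0.754). For KLF5, NKX2-1, GATA6, FOXA2 and SOX2 the 95% intervals thus reach no further than 0.27 from 0 in either direction. The interval of SOX9 reaches to 0.42 and that of NAPSA to -0.65.

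**Figure D3:**
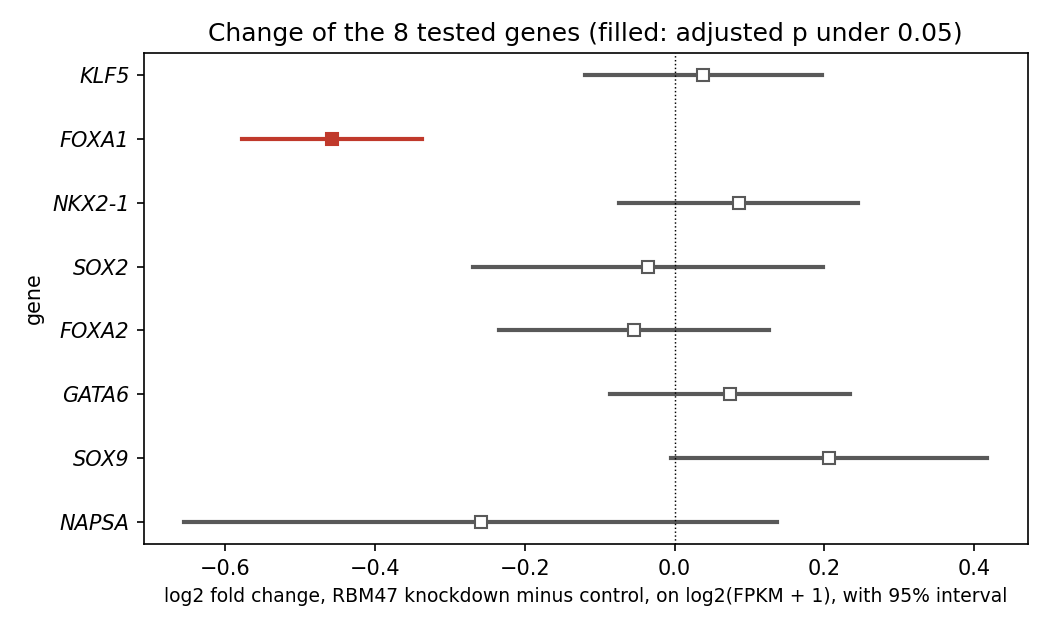
Log2 fold change of the 8 tested genes on the log2(FPKM + 1) scale with limma's 95% interval (bars). FOXA1 at -0.46 is the filled point, past the threshold of 0.05 on the adjusted p; the intervals of the other 7 genes include 0.

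The surfactant genes were at or near the floor of the table. SFTPB (ENSG00000168878, alone in its locus on chromosome 2 from 85884437 to 85895864) was listed at 0 in all 6 libraries. NAPSA (ENSG00000131400) had 0.912, 1.17 and 1.06 FPKM in RBM47 knockdown replicates 1 to 3 and 1.18, 1.20 and 2.05 FPKM in control replicates 1 to 3. Control replicate 3 stood apart from the other 5 libraries, and it was also the deepest, at 1.16 relative to knockdown replicate 1. The part of depth in this value was not tested. The groups did not overlap, but the lowest control value was 1.18 and the highest knockdown value 1.17 FPKM. Mean FPKM was 1.05 ± 0.130 against 1.48 ± 0.497 (SD, n = 3 each), which is 70.9% of the control level. The log2 fold change was -0.26 (95% interval -0.65 to 0.14, limma, adjusted p = 0.36) and -0.10 without control replicate 3. With a pseudocount of 0.1 in place of 1 it was -0.42 (limma, adjusted p = 0.374). NAPSA lies on chromosome 19 in a locus from 50815194 to 50886239 that holds 5 genes, among them its near copy NAPSB, which reached 0.05 FPKM at most.

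The stretches before the start sites of these genes show which factor cores lie next to a gene listed at 0, a low gene, the factor that fell and a factor that did not pass. RefSeq windows were found for 7 of the 9 genes. The letters searched were CAAG, the core of NKX2-1 sites, and TGTTT, the core of forkhead sites, on both strands. AGATAA, the core of GATA sites, was also searched and is not marked. Shown are the 250 bases before the start, 5′ to 3′ on the gene's strand, at the downstream start where 2 are listed. Positions are in GRCh38.p14, which is not the build of the table. Capitals mark matches to CAAG or TGTTT or their reverse complements, and no match of one core overlaps a match of the other.
SFTPB, chr2:85668200-85668449, minus strand: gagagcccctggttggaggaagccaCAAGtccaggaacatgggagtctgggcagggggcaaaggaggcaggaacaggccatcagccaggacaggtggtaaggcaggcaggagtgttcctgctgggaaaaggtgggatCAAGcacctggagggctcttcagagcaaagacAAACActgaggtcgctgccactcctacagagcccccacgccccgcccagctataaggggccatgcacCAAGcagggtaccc
NAPSA, chr19:50365640-50365889, minus strand: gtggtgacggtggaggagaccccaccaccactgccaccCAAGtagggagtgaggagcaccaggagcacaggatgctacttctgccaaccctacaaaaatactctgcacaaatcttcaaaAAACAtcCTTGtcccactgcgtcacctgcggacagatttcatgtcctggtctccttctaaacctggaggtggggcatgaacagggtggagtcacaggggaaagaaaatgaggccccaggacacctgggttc
FOXA1, chr14:37595250-37595499, minus strand: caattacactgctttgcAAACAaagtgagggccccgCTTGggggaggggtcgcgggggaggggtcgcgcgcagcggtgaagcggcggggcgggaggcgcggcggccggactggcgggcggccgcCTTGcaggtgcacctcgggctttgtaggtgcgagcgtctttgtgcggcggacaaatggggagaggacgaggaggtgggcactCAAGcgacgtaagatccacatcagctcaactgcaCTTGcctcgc
NKX2-1, chr14:36519557-36519806, minus strand: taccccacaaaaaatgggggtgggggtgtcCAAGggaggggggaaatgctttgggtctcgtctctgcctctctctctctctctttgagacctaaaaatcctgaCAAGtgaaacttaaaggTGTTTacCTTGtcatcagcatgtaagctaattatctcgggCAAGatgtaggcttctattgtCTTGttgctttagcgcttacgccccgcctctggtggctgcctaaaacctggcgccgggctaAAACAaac

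The SFTPB window held 3 matches to CAAG and 1 to TGTTT, in a promoter that NKX2-1 and forkhead factors are known to bind in lung cells. In these libraries the transcripts of NKX2-1, FOXA1 and FOXA2 were present while SFTPB was listed at 0. The NAPSA window held 2 and 1 matches, that of FOXA1 4 and 1, and that of NKX2-1 5 and 2. Among the windows not shown, that of GATA6 held 0 and 2, that of SOX2 0 and 0, and that of KLF5 1 and 0. Such short cores are common, since 80.9% of the 35116 RefSeq windows of this length held CAAG, 40.4% held TGTTT and 34.8% held both. AGATAA had 1 match in the NKX2-1 window and none in the windows of the other genes, and 9.2% of the RefSeq windows held it. The matches describe the letters and show no binding.

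Around the 9 genes, the wider surfactant and alveolar type II list ranged from genes listed at 0 to genes well expressed. Of its 35 genes 15 could be tested, 2 were higher and 1 was lower, with a median log2 fold change of -0.03. Across all tested genes 5.1% were higher and 6.34% lower, which is the background for the counts of this and the following lists. The genes at 0 in every library numbered 4, among them SFTPA1, which encodes a surfactant protein. SFTPA2, SFTPC and SFTPD reached 0.14, 0.07 and 0.16 FPKM at most. Besides SFTA3, the higher gene was NPC2, which encodes a cholesterol-binding lysosomal protein. NPC2 had 258 ± 6.11 against 218 ± 12.7 FPKM (SD, n = 3 each; log2 fold change 0.24, limma, adjusted p = 0.0244). Its call was lost without knockdown replicates 1 or 2 or control replicate 2 (adjusted p = 0.0625, 0.0908 and 0.0595), with no filter (0.0639) and without the trend (0.0652). The lower gene was SLC22A31, a member of the solute carrier family, at 1.50 ± 0.520 against 3.69 ± 0.656 FPKM (SD, n = 3 each; log2 fold change -0.92, limma, adjusted p = 0.0173). Its call was lost without knockdown replicate 2 or control replicates 1 or 3 (0.0605, 0.0564 and 0.0521) and with no filter (0.0613), while 2 genes of the list were lower without knockdown replicate 1 or with array weights. CTSH, the gene of cathepsin H, which also cuts the SFTPB proprotein, had 117, 105 and 86.0 FPKM after RBM47 knockdown and 126, 119.5 and 129 FPKM in the controls. CTSH did not pass (log2 fold change -0.29, limma, adjusted p = 0.108), and it was named after its values were seen.

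Among 42 other transcription factors of the lung epithelium 30 could be tested, of which 3 were higher, 2 lower and 25 not past the threshold (median log2 fold change 0.05). ID2, an inhibitor of basic helix-loop-helix factors that marks distal lung progenitors in mouse, rose from 10.6 ± 1.64 to 18.9 ± 0.668 FPKM (SD, n = 3 each; log2 fold change 0.79, SE 0.10, limma, adjusted p = 0.00419). NR3C1, the glucocorticoid receptor gene, rose by 0.32 (adjusted p = 0.0104). RARG, a retinoic acid receptor gene, rose by 0.26 (adjusted p = 0.0197), a call that was lost without knockdown replicates 1 or 2 or control replicate 2 (0.0594, 0.0756 and 0.0558) and without the trend (0.0538). ELF3, an epithelial ETS factor gene named after its value was seen, fell by 0.15 (adjusted p = 0.0447). This list had 1 lower gene in place of 2 in each fit without 1 library except that without knockdown replicate 3. It also had 1 with no filter, the same total, the same upper quartile, quantile normalization, no trend or the replicate block. SOX4 fell from 129 ± 3.10 to 103 ± 1.404 FPKM (SD, n = 3 each; log2 fold change -0.33, limma, adjusted p = 0.00373).

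The relatives of the factors, of napsin A and, as saposin-like genes, of SFTPB numbered 58, of which 22 could be tested. Of these 6 were lower, 1 higher and 15 not past the threshold, with a median of -0.04. SOX13 was the gene that rose, by 0.45 (limma, adjusted p = 0.0141; 0.0505 and 0.051 without control replicates 1 and 2). SOX4, KLF6 (-0.39) and CTSD (-0.43), the gene of the aspartic protease cathepsin D, were among those that fell (limma, adjusted p = 0.00373, 0.00457 and 0.00493). The count of lower relatives was between 3 and 5 in the fits without 1 library, with the strongest drops without knockdown replicate 2 or control replicate 3. FOXA3, the remaining member of the FOXA family, reached 0.10 FPKM at most. GATA3, GATA4 and GATA5 were listed at 0 in every library. FOXA1, FOXA2 and GATA6 were thus the FOXA and GATA genes at these levels, apart from GATA2 at 1.90 to 3.52 FPKM.

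Of 18 tested alveolar type I genes 6 were lower (4 to 6 without 1 library) and 1 higher (median -0.04), and S100A6, a calcium-binding protein gene, and SEMA3B, a semaphorin gene, fell by 0.59 and 0.61 (limma, adjusted p = 0.00163 and 0.00381). EMP2, an epithelial membrane protein gene, rose by 0.42 (limma, adjusted p = 0.0188), a call that was lost without knockdown replicate 2 or control replicates 2 or 3 (0.0657, 0.0635 and 0.0606) and with no filter (0.0557). AGER, PDPN and AQP5 of the alveolar type I list were named after their values were seen. AGER averaged 1.39 FPKM after knockdown against 0.733 in the controls and did not pass (log2 fold change 0.46, limma, adjusted p = 0.0944). PDPN was listed at 0 in every library, and AQP5 reached 0.09 FPKM at most. Of 26 club and goblet cell genes 8 could be tested, 1 was lower and 1 higher (median -0.33). The lower count was 2 without control replicate 1 and with a pseudocount of 0.1, and 4 with quantile normalization, no trend or array weights. MUC5B, the airway mucin gene, fell from 17.5 ± 0.859 to 12.0 ± 0.950 FPKM, and WFDC2, a secreted protease-inhibitor-like gene, rose from 162 ± 9.57 to 211 ± 8.61 FPKM (SD, n = 3 each; limma, adjusted p = 0.00615 and 0.00668). The club cell genes SCGB1A1 and SCGB3A1 were listed at 0 in every library. No ciliated cell gene passed among 12 tested in limma, with 4 at an unadjusted p under 0.05, and 1 was lower without knockdown replicate 1 or at a mean of 5 FPKM or more. Of 10 tested airway basal and squamous genes CDH3 was higher and none lower, although 1 was lower without control replicate 1, with array weights or at a mean of 5 FPKM or more. None of 3 tested neuroendocrine genes, of 2 tested gastric and intestinal genes or of 6 tested markers of other cell types passed in limma, with 0, 0 and 2 at an unadjusted p under 0.05. Of 26 gastric and intestinal genes 15 were listed at 0 in every library. Of the 14 epithelial identity genes 9 were lower and 1 higher, against 6.34% and 5.1% of all tested genes, with a median of -0.22. Without 1 library the lower count ranged from 5 to 8, lowest without knockdown replicate 2 or control replicate 2, and the higher count was 1 without knockdown replicate 3 and 0 in the other 5 fits. The higher gene over all 6 libraries was the membrane protease gene ST14 (0.24, limma, adjusted p = 0.0388), named after its value was seen. No gene of this list was higher with no filter, no trend or the replicate block. KRT7, a simple-epithelium keratin gene that the alveolar type I list also holds, fell by 0.46 (limma, adjusted p = 0.00143). The lower genes that the epithelial identity list shares with others also include KRT19 (alveolar type I) and ELF3 (other transcription factors). Both were named after their values were seen.

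**Figure D4:**
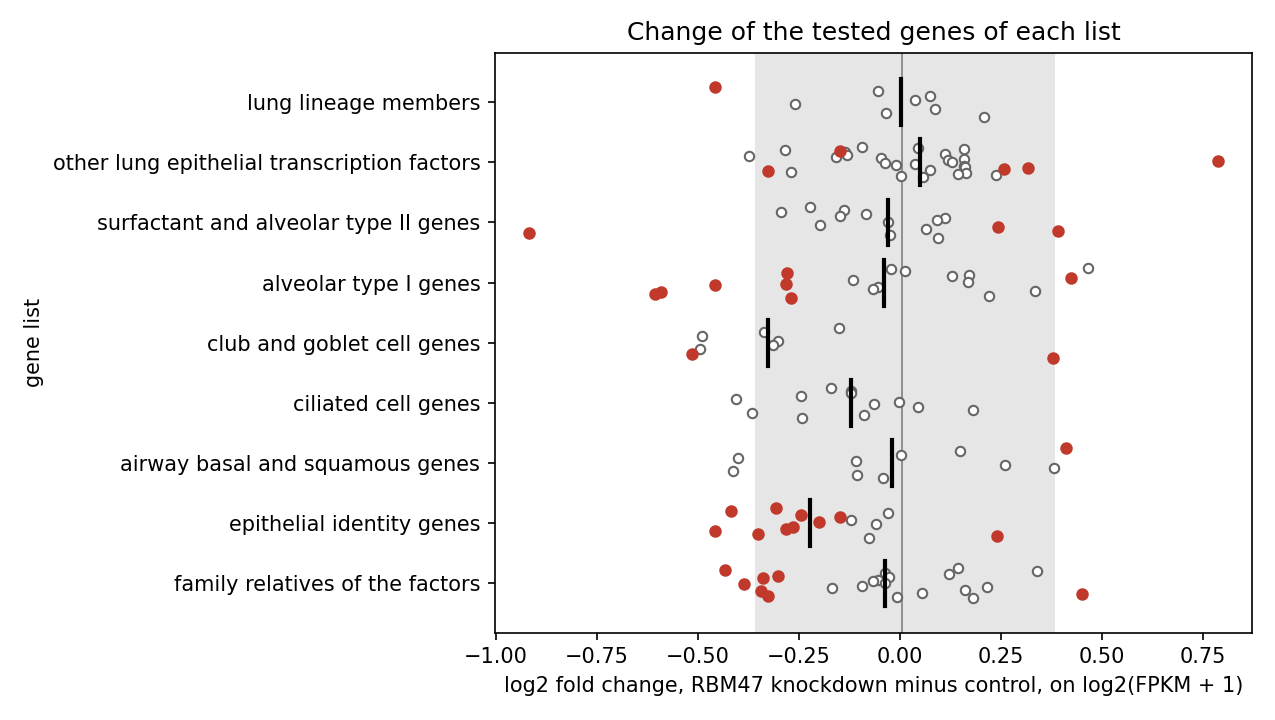
Log2 fold change of each tested gene of 9 lists on the log2(FPKM + 1) scale (filled, adjusted p under 0.05; vertical bars, list medians; grey band, 5th to 95th percentile of all tested genes, -0.36 to 0.38). FOXA1 is the filled point of the top row, and the epithelial identity genes have a median of -0.22.

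The tested genes whose levels followed those of FOXA1 most closely over the 6 libraries were PSENEN, LRRC8A and ITGB2, with Pearson's r of 0.998, 0.998 and 0.996 on the log2(FPKM + 1) scale. In all, 37 tested genes reached 0.99. All these values come from the same 6 libraries in 2 groups, so any gene that differs between the groups with little spread correlates with FOXA1.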

How the data were processed

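RNA of H358 cells was made into stranded mRNA libraries for paired-end reading, according to the labels. TopHat 1.4.1, Cuffdiff 2.2.0 and the build hg19 appear in the submitters' processing notes. The authors deposited gene-level FPKM with the locus of each gene; the sources used here do not give how libraries were scaled or whether strand was used. No count test was applied, as the values are not counts. Starts of loci count from 0 in the table (18047 of 22152 single-gene loci then match the GENCODE 29 gene length, against 203) and are printed counted from 1.

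Genes averaging 1 FPKM or more were fitted with limma 3.58.1 (R 4.3.3, trended prior) on log2(FPKM + 1), comparing the 3 knockdown with the 3 control libraries, with Benjamini-Hochberg adjustment over all 14419 genes. A fold change on this scale understates that of low genes. Single values were also compared with the exact permutation test. Relative depth is the most frequent ratio of values under 0.3 FPKM. The fit was tested on simulated data. The alternatives were other pseudocounts (0.1, 0.5), filters (none, 5 FPKM), scalings and limma settings, the replicate number as a block, and leaving out each library. The genes and lists were chosen with earlier results of these data known. All 9 genes are named, and of each other list at most 4 passing genes by size of change, or 2 by mean level if none passed; the text gives those it needs and says where others were added. The replicates are described as biological. The limma p-values set the difference between the groups against the spread between these libraries. That spread is each gene's own, drawn by the trended prior toward that of genes at a similar level.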

Additional observations from a re-analysis of the deposited data

How the results depend on the processing

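FOXA1 kept its direction and its call in each of the 16 alternatives, with log2 fold changes from -0.48 to -0.43 and limma adjusted p from 0.00162 to 0.0188. The counts of these genes past the threshold, 0 higher and 1 lower, were equal in all of them. None of the other 7 passed in any alternative run (limma, adjusted p from 0.139 up), and SOX9 and NAPSA had no value at a mean of at least 5 FPKM. Without 1 library, KLF5 ranged from -0.0195 to 0.0782, SOX2 from -0.116 to 0.0251 and FOXA2 from -0.102 to 0.000344. The sign thus turned for KLF5 without knockdown replicate 2 or control replicate 3 (-0.00922), for SOX2 without knockdown replicate 2 or control replicate 2 and for FOXA2 without knockdown replicate 3. Of genes outside the 9, LUM turned to 0.00106 with the same total, to 0.0336 with array weights and to 0.12 without knockdown replicate 3, and VSIG1 to -0.0229 (range to 0.371) without knockdown replicate 3. Neither passed.

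Over all tested genes 736 were higher and 914 lower. The balance turned to 914 higher and 786 lower at the same total (53.8% of calls higher against 44.6%), and was 825 and 848 at the same upper quartile. The counts were 366 and 550 with no filter, and 258 to 503 and 421 to 785 without 1 library; all but the fit without knockdown replicate 3 moved them by over 1.5 times. The replicate block gave 348 and 489, with FOXA1 at an adjusted p of 0.0188 and RARG, SFTA3 and NPC2 at 0.0642, 0.0866 and 0.0618. Same-numbered libraries did not deviate together, with correlations of 0.02, -0.10 and 0.08, so the numbers were not taken to pair libraries. No scaling moved the median of all genes by over 0.1. The fragment depth is unknown and limits NAPSA and SFTPB most.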
